A study of Mus musculus with 56 samples.

Results

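OVA:Kb-specific CD8 T cells with fetal specificity (TFGS) that carry PD-1 and CD73 were compared between mothers that had memory of the father's antigens before mating and mothers that had none. The comparison takes every sample labelled S+P C5 and every sample labelled N+P C5, which are 9 of 30 samples and 16 of 56 libraries. All mice were C57BL/6 females that carried a semi-allogeneic pregnancy by 2W-OVA.BALB/c males, whose cells express the model antigen 2W-OVA throughout the body, and the TFGS were taken from spleen and lymph nodes after delivery. The 6 S+P C5 samples came from sensitized mice, which had received an allogeneic 2W-OVA.BALB/c skin graft before mating. The 3 N+P C5 samples came from naive mice, which had no graft. In both groups TFGS were sorted as PD1+CD73+ (the subset called C5), so the sort was the same and the groups differed in the graft. The mice of the 2 groups are different animals and are not paired. Each numbered replicate was taken as 1 mouse. The main fit estimated spread over all 30 samples in 7 groups. Its p-values therefore do not measure the spread of the 9 C5 samples alone. The study's methods describe sorting in separate experiments and a group size below the number of S+P C5 replicates in the labels. The labels do not tie samples to an experiment, so the experiment could not enter the fit, and p-values are too small if some of the numbered replicates share a mouse. Each library was made from 200 live cells by SmartSeq2, a full-length cDNA protocol with PCR amplification, and all libraries shared 1 sequencing run.

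A naive CD8 T cell recirculates through lymph nodes with the help of the chemokine receptor CCR7 and the lipid receptor S1PR1, and keeps a quiescence program that depends on transcription factors such as TCF-1, LEF1 and FOXP1. Once primed, CD8 T cells that survive as memory cells lower much of this program and gain NK-type lectin receptors, chemokines, granzymes and receptors for inflamed tissue. PD-1 is an inhibitory receptor that antigen receptor signals induce, and CD73 is the ectoenzyme that makes adenosine from AMP. The comparison of S+P C5 with N+P C5 asks how much of the difference between memory and naive TFGS is present in cells that share this surface phenotype after pregnancy.

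The C5 libraries had 10547084 to 32625243 counts. Technical libraries of a replicate were summed, and counts are given as CPM, which are counts scaled to the size of the library after edgeR's TMM normalization. Between 12416 and 17338 genes were detected per sample in S+P C5 and between 15625 and 16750 in N+P C5. Total counts, detected genes, the share of the top gene (an rRNA-related sequence) and the share of mitochondrial genes gave exact two-sided permutation p = 0.405 to 0.643. With 6 against 3 samples this test has little power. S+P C5 replicates 2 and 3, the only C5 samples with 1 library, stood apart from the other 7. Their median correlations with the other C5 samples were 0.876 and 0.842, against 0.929 to 0.944 for the rest, taken over log2(CPM + 1) across genes, which are not independent replicates. The first principal component, with 48.3% of the variance of 500 genes, put them at 37.1 and 70.7 and the other 7 between -20.5 and -12.7. Where leaving these replicates out changed the number of list members counted, the number with the 4 S+P C5 replicates that have both libraries is also given.

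**Figure D1:**
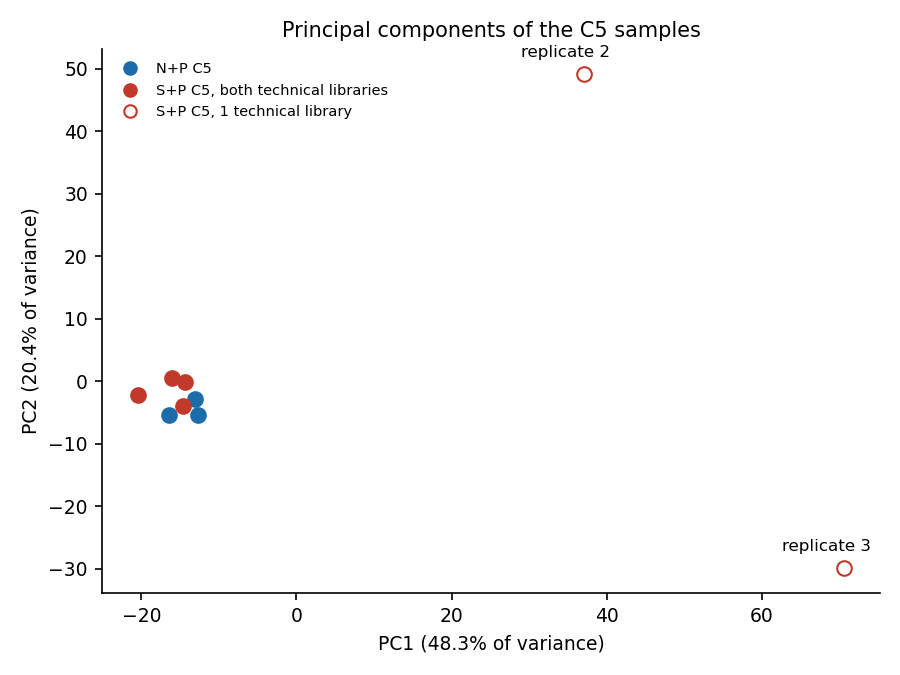
Principal components 1 and 2 of the 9 C5 samples, computed on the 500 most variable genes, with each axis giving its share of the variance. Open circles mark S+P C5 replicates 2 and 3, which have 1 library each and lie away from the other 7 samples, while the 3 N+P C5 samples lie among the remaining S+P C5 samples.

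The sorted cell type was present in every sample. All 9 markers of CD8 T cells were measured, and none had an unadjusted p under 0.05 between the groups. *Cd8a* had 1419.9, 1142 and 887 CPM in N+P C5 and ran from 654 to 1412 CPM with a median of 1228 in S+P C5. *Cd4*, *Ncr1* (the NK receptor NKp46) and *Lyz2* (macrophage lysozyme) had 0 counts in all 9 samples, but other members of their lists had counts. The summed level of 4 NK cell markers was 0 to 62.2 CPM in S+P C5 and 2.42 to 9.42 CPM in N+P C5. That of 3 CD4 and regulatory T cell markers was 0 to 2.72 CPM in S+P C5 and 2.33 to 9.28 CPM in N+P C5. The summed level of 10 myeloid markers was 46.4 to 113 CPM in S+P C5 and 16.1 to 24.2 CPM in N+P C5, mostly from *Cd68*, which encodes a lysosomal protein and ran from 26.4 to 79.0 CPM with a median of 55.0 in S+P C5. The summed level of 8 B cell markers was 212 to 532 CPM in S+P C5 and 375 to 2222 CPM in N+P C5, mostly from *Ighm* and *Igkc*, and *Igkc* reached its highest level, 888 CPM, in N+P C5 replicate 1. Of the gamma delta T cell markers, *Trgc2* ran from 42.1 to 199 CPM with a median of 76.4 in S+P C5 and had 35.5, 0.0292 and 5.62 CPM in N+P C5. *Trdc*, which defines these cells, went the other way, with 0 counts in all 6 S+P C5 samples and counts in N+P C5. The part of these other markers in the differences below was not tested, and in bulk samples fewer cells that express a gene and less RNA per cell cannot be told apart.

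At the thresholds used for differential expression (adjusted p under 0.1 and absolute log2 fold change above 0.9), edgeR called 0 of 19657 genes (0%) in this comparison, and the smallest adjusted p was 0.135. In the same fit 1155 genes (5.88%) had an unadjusted p under 0.05, of which 422 (2.15%) were higher and 733 (3.73%) lower in S+P C5. Of these genes, 346 of the higher and 537 of the lower ones had 0 counts in every sample of 1 group. Among the 8243 genes with a mean of at least 10 CPM, 83 (1.01%) had an unadjusted p under 0.05, 45 higher (0.546%) and 38 lower (0.461%). The call depended on which samples of the other 5 groups shared the fit. Without 3 samples of S+P C4 and S+P C7 that had under 9000 detected genes, 16 genes (0.0818%) passed both thresholds, of which 5 were higher and 11 were lower in sensitized mothers. They included *Klrk1*, *Gzmk*, *Sh2d1a*, *Slamf7* and *Ctla2a* (higher) and *Satb1*, *Ccr7*, *Lef1*, *Rgcc*, *Plaur*, *Slc6a19*, *Ighm*, *Trdc*, *Gm43698* and *Klra13-ps* (lower), of which the last 4 were chosen after their values were seen. With the other 5 groups left out of the fit, *Gzmk* and *Satb1* passed (2 of 14300 genes, 0.014%), and the split at an unadjusted p under 0.05 turned to 438 higher and 196 lower. DESeq2 called 757 genes, of which 698 had 0 counts in every sample of 1 group. Without N+P C5 replicate 1, 2 or 3 the number of genes higher at an unadjusted p under 0.05 was 135, 102 or 106, and without N+P C5 replicate 1 *Klrk1* passed both thresholds. Gene groups below are counted at an unadjusted p under 0.05, to be read against 2.15% higher and 3.73% lower among all genes tested.

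The smallest p values belonged to a chromatin organizer and an activating receptor. *Satb1* had 145, 266 and 173 CPM in N+P C5 and ran from 11.8 to 41.3 CPM with a median of 26.0 in S+P C5 (ENSMUSG00000023927, GRCm39 chromosome 17, 52043114 to 52140622, minus strand). SATB1 is a nuclear protein that folds chromatin in thymocytes and naive T cells. All 6 S+P C5 samples lay under all 3 N+P C5 samples (log2 fold change -2.89, SE 0.55, unadjusted p = 1.02e-05, adjusted p = 0.135 in edgeR's quasi-likelihood fit). *Klrk1* had 177, 37.3 and 35.1 CPM in N+P C5 and ran from 349 to 597 CPM with a median of 517 in S+P C5 (ENSMUSG00000030149, GRCm39 chromosome 6, 129587286 to 129600827, minus strand). *Klrk1* encodes NKG2D, a receptor for stress-induced ligands that memory CD8 T cells carry, and all 6 S+P C5 samples lay above the 3 N+P C5 samples, of which replicate 1 had the highest value (log2 fold change 2.599, SE 0.51, unadjusted p = 1.47e-05, adjusted p = 0.135 in edgeR's quasi-likelihood fit). *Gzmk* had 15.0, 19.7 and 11.9 CPM in N+P C5 and ran from 134 to 538 CPM with a median of 231 in S+P C5 (ENSMUSG00000042385, GRCm39 chromosome 13, 113308142 to 113362442, minus strand). *Gzmk* encodes granzyme K, a protease of memory and PD-1-bearing CD8 T cells, and the groups did not overlap (log2 fold change 4.25, SE 1.18, unadjusted p = 0.00106, adjusted p = 0.809 in edgeR's quasi-likelihood fit, and adjusted p = 0.0554 with only these 2 groups in the fit). Among all genes tested, samples of the groups did not overlap for 190 (0.967%) that were higher and 335 (1.7%) that were lower in S+P C5.

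**Figure D2:**
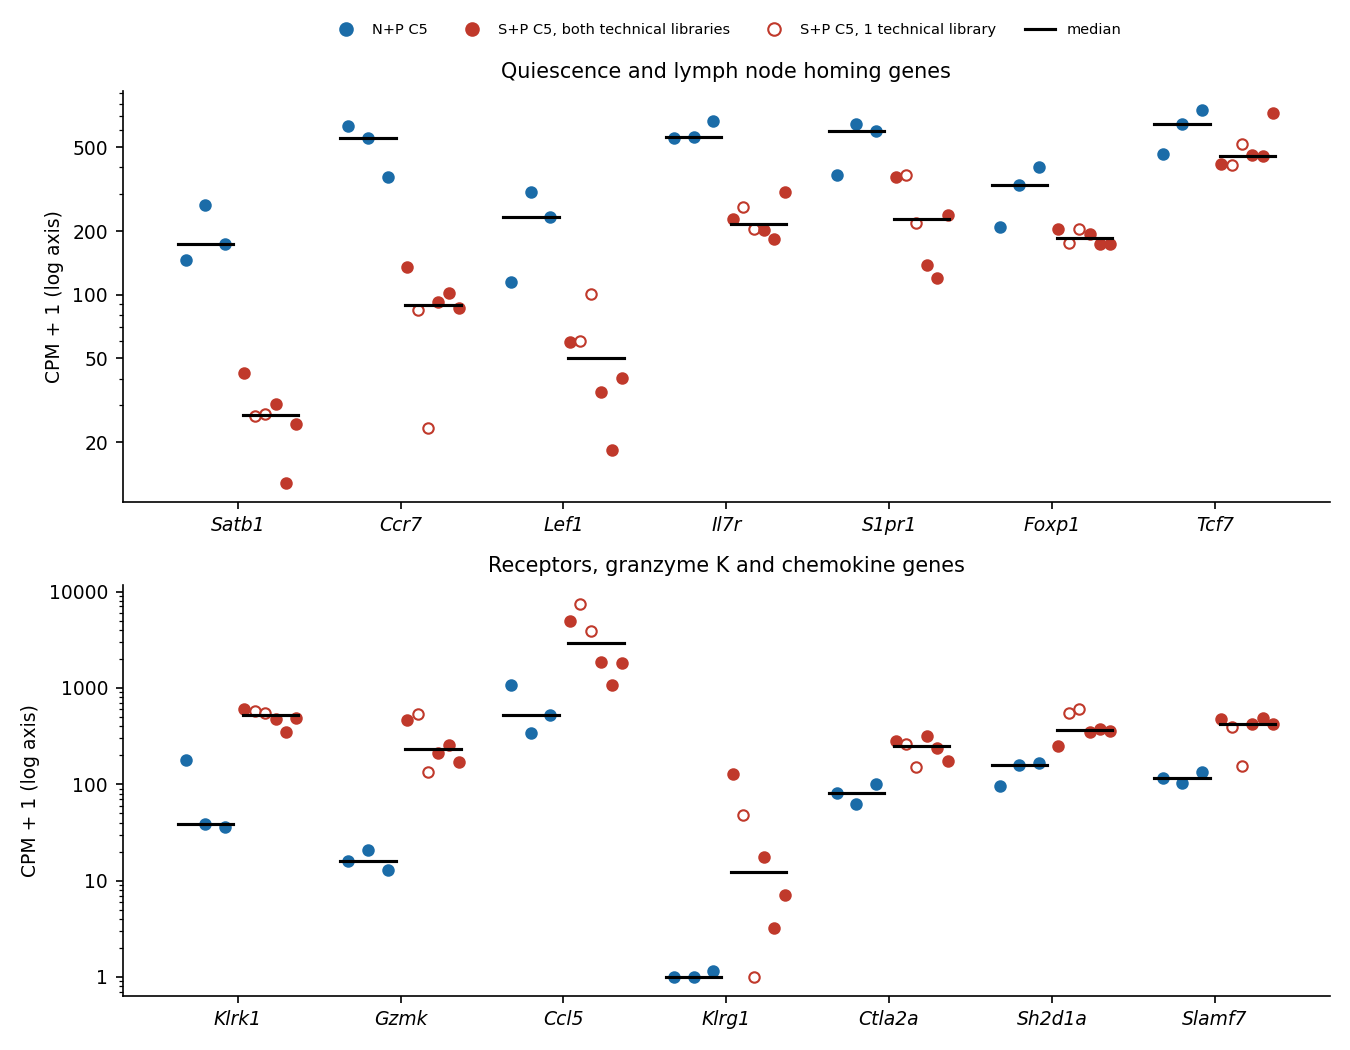
CPM + 1 on a log axis in each C5 sample for 7 genes of quiescence and lymph node homing (top) and 7 receptor, granzyme and chemokine genes (bottom), with N+P C5 in blue, S+P C5 in red, open circles for the S+P C5 samples with 1 library and bars at group medians. *Satb1*, *Ccr7*, *Lef1*, *Il7r* and *Foxp1* show S+P C5 points below all N+P C5 points, and *Klrk1*, *Gzmk*, *Ctla2a*, *Sh2d1a* and *Slamf7* show them above, while *S1pr1*, *Tcf7*, *Ccl5* and *Klrg1* overlap.

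Promoter sequences are shown for 2 of the higher and 2 of the lower genes, chosen as those for which the RefSeq table (build GRCm38.p6) lists a single start site. Each is the 250 bases before the start, written along the gene's strand, and capitals mark matches on either strand to CTTTGA (core of TCF/LEF sites), CACCC (core of KLF sites), GGTGTGA (core of T-box sites) or TGTGGT (Runx core).
Klrk1 chr6:129623865-129624114 (-): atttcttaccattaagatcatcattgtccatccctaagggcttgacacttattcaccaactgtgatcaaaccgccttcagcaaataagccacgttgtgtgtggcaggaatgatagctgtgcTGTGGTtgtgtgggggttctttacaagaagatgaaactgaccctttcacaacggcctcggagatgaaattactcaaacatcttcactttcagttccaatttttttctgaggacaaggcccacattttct
Gzmk chr13:113180966-113181215 (-): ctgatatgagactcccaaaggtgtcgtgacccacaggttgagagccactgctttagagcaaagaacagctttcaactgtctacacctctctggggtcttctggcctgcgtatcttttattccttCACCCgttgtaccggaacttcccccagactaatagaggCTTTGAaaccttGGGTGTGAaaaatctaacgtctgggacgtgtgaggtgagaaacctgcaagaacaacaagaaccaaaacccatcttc
Il7r chr15:9529877-9530126 (-): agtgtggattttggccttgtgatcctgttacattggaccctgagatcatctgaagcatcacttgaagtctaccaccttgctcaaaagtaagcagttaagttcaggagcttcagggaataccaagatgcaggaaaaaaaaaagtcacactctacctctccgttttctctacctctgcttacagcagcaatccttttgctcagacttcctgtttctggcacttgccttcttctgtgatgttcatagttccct
Igfbp4 chr11:99040994-99041243 (+): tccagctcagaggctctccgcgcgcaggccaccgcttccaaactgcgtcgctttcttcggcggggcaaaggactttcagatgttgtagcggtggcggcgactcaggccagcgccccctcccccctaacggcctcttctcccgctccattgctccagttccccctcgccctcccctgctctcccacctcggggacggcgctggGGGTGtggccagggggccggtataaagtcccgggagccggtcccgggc
The *Klrk1* window held TGTGGT 1 time. The *Gzmk* window held CTTTGA 1 time, GGTGTGA 1 time and CACCC 2 times, of which 1 match on the opposite strand overlaps GGTGTGA. The *Igfbp4* window held CACCC 1 time, and none of the 4 motifs was in the *Il7r* window. Of 32851 windows of this length in the table, 13.8% held CTTTGA, 52.0% CACCC, 3.33% GGTGTGA and 14.1% TGTGGT. A match describes the letters and shows no binding.

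Genes of quiescence and lymph node homing were more often lower than higher in C5 TFGS of sensitized mothers. Of 15 genes in this list, all tested, 8 were lower in S+P C5 and 0 higher at an unadjusted p under 0.05, 13 had a log2 fold change below 0, and the median was -0.78 against 0.00 for all genes tested. With the 4 S+P C5 replicates that have both libraries, 8 were lower and the median was -1.28, and over 21 alternatives the number lower ranged from 6 to 12. *Satb1*, *Ccr7* and *Lef1* passed both thresholds without the 3 samples of other groups. *Ccr7* had 624.7, 552 and 361 CPM in N+P C5 and ran from 22.3 to 135 CPM with a median of 88.4 in S+P C5, so that no sample of one group reached the other (log2 fold change -2.57, SE 0.68, unadjusted p = 0.000678). *Lef1* had 113, 304 and 231 CPM in N+P C5 and ran from 17.4 to 99.1 CPM with a median of 49.1 in S+P C5 (log2 fold change -2.07, SE 0.58, unadjusted p = 0.00113). *Il7r* had 551, 559.5 and 666 CPM in N+P C5 and ran from 183 to 306 CPM with a median of 215 in S+P C5 (log2 fold change -1.37, SE 0.48, unadjusted p = 0.00751). *Il7r* encodes CD127, the receptor chain through which IL-7 keeps resting T cells alive, and the 6 S+P C5 samples lay below the 3 N+P C5 samples. *S1pr1* had 366, 642 and 596 CPM in N+P C5 and ran from 119 to 369 CPM with a median of 227 in S+P C5, with S+P C5 replicates 1 and 2 close to the lowest N+P C5 sample (log2 fold change -1.16, SE 0.38, unadjusted p = 0.00456). *Foxp1* (log2 fold change -0.74, unadjusted p = 0.04) and *Igfbp4* (log2 fold change -4.97, unadjusted p = 0.00805), which encodes a binding protein of insulin-like growth factors, were also lower. *Tcf7*, which encodes TCF-1, was not among the 8. *Tcf7* had 459.8, 641 and 751 CPM in N+P C5 and ran from 410.0 to 723 CPM with a median of 455 in S+P C5, with overlap between the groups and a log2 fold change of -0.32 (95% interval -1.11 to 0.48).

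**Figure D3:**
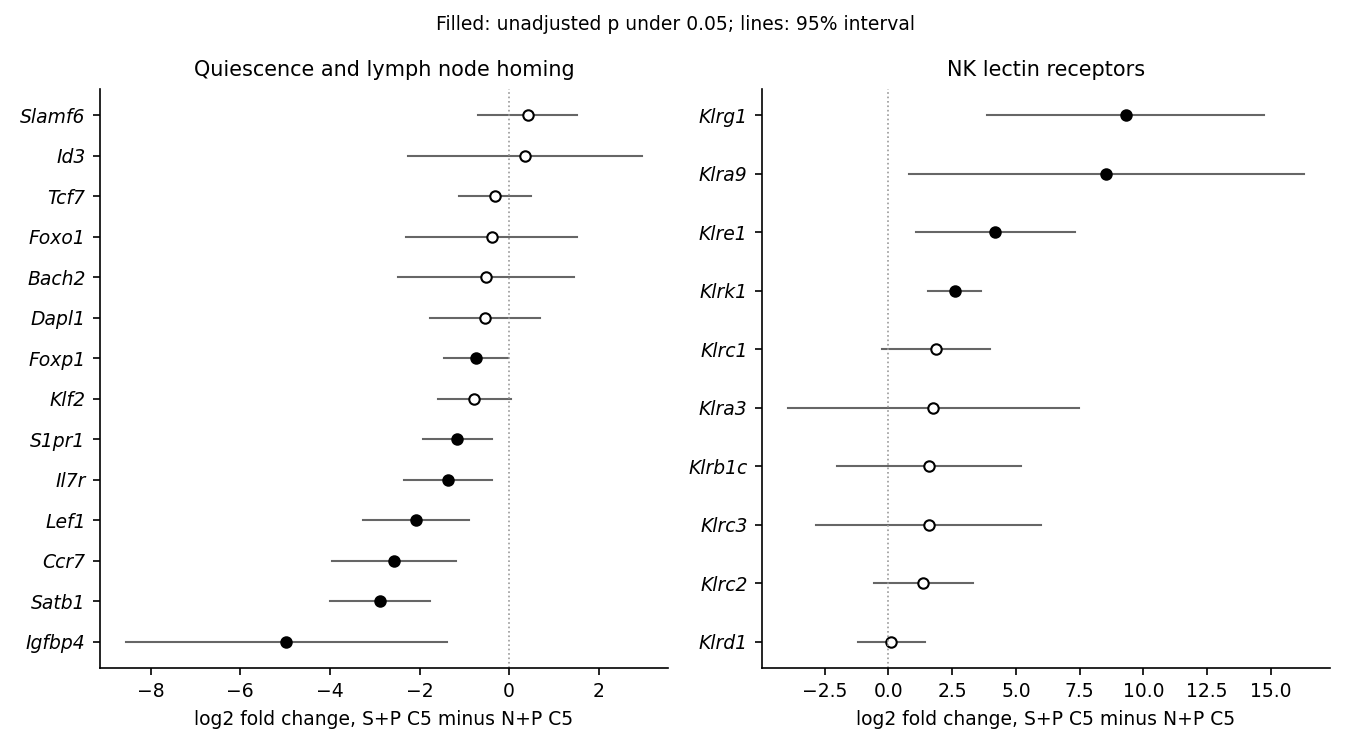
Log2 fold change of S+P C5 minus N+P C5 with its 95% interval for members of the lists of quiescence and lymph node homing genes (left) and NK lectin receptors (right), with filled points for an unadjusted p under 0.05. 7 of 14 points on the left are filled and below 0, and 4 of 10 on the right are filled and above 0.

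NK lectin receptor genes leaned to higher levels in C5 TFGS of sensitized mothers, but only part of them had small p values. All 10 members of the list had a log2 fold change above 0, 4 were higher at an unadjusted p under 0.05, and the median was 1.81. The number higher ranged from 3 to 5 over 21 alternatives, and was 3 with the 4 replicates that have both libraries. *Klrg1* had 0, 0 and 0.155 CPM in N+P C5 and ran from 0 to 126 CPM with a median of 11.3 in S+P C5 (log2 fold change 9.30, SE 2.67, unadjusted p = 0.00146). *Klrg1* encodes an inhibitory receptor of effector-memory cells, and S+P C5 replicate 3 had 0 counts. Because *Klrg1* was at or near 0 in N+P C5, the size of its fold change is uncertain. *Klre1* had 6.95, 0 and 0.776 CPM in N+P C5 and ran from 2.34 to 119 CPM with a median of 41.7 in S+P C5 (log2 fold change 4.19, SE 1.54, unadjusted p = 0.0103). *Klra9*, of the Ly49 family, had counts in 1 S+P C5 sample only, replicate 3 with 8.51 CPM. Without this sample the number higher in the list was 3. Close homology of *Klra9* to other Ly49 genes makes its count uncertain because reads that mapped to several places had been removed. *Klrc1*, which encodes NKG2A, had 236, 22.2 and 27.3 CPM in N+P C5 and ran from 256 to 438 CPM with a median of 352 in S+P C5, without overlap but with unadjusted p = 0.085.

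Of 12 cytotoxic granule genes, 3 were higher and 0 lower at an unadjusted p under 0.05, with a median of 0.74. They were *Gzmk*, *Nkg7* (a granule membrane protein) and *Srgn* (serglycin, the proteoglycan that packs granule proteins). *Nkg7* had 2467, 1717 and 1816 CPM in N+P C5 and ran from 2634 to 4369 CPM with a median of 3022 in S+P C5, and the groups did not overlap (log2 fold change 0.65, SE 0.27, unadjusted p = 0.022). *Srgn* had 663, 483 and 435 CPM in N+P C5 and ran from 597 to 1719.8 CPM with a median of 1078 in S+P C5, with overlap (log2 fold change 1.02, SE 0.42, unadjusted p = 0.0218). The count was 1 with the 4 replicates that have both libraries, and also without N+P C5 replicate 2, N+P C5 replicate 3 or S+P C5 replicate 2. Of 20 cytokine and chemokine genes, 2 were higher, *Ccl5* and *Cxcl13*. *Ccl5* had 1073, 340.0 and 522 CPM in N+P C5 and ran from 1064 to 7481 CPM with a median of 2894 in S+P C5 (log2 fold change 2.45, SE 0.66, unadjusted p = 0.000926). *Ccl5* encodes RANTES, a chemokine that memory CD8 T cells store as message, and N+P C5 replicate 1 was slightly above the lowest S+P C5 sample. *Cxcl13*, which encodes a chemokine that attracts B cells, had 0 counts in N+P C5 and in 3 of 6 S+P C5 samples, with 17.2 CPM in S+P C5 replicate 1, without which the number of cytokine genes higher was 1, as it was without N+P C5 replicate 1 or 3. Of 13 chemokine receptor genes tested, 10 had a log2 fold change above 0 with a median of 0.89, and 1 was higher and 1 lower at an unadjusted p under 0.05. The lower one was *Ccr9*, the gut-homing receptor (log2 fold change -3.76, unadjusted p = 0.0233). Both numbers were 0 with the 4 replicates that have both libraries, and the number higher was 0 without N+P C5 replicate 2, N+P C5 replicate 3 or S+P C5 replicate 1.

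Memory-associated surface and calcium-binding genes, which distinguish memory from naive CD8 T cells, overlapped between the groups for all members but *Klrk1*. Of 21 tested, 5 were higher and 0 lower at an unadjusted p under 0.05, 17 had a log2 fold change above 0, and the median was 0.39. Besides *Klrk1* they were *S100a11* (log2 fold change 1.34, unadjusted p = 0.0133), *S100a6* (log2 fold change 1.18, unadjusted p = 0.0176), *Lgals1* (log2 fold change 0.95, unadjusted p = 0.043) and *S100a10* (log2 fold change 0.77, unadjusted p = 0.0314), which encode calcium-binding proteins and galectin-1. *S100a6* had 428, 129 and 200.2 CPM in N+P C5 and ran from 358 to 1047 CPM with a median of 507 in S+P C5, with N+P C5 replicate 1 inside the range of S+P C5. Only *Klrk1* remained at an unadjusted p under 0.05 with the 4 replicates that have both libraries, and the count was also 1 without N+P C5 replicate 2, N+P C5 replicate 3 or S+P C5 replicate 2. *Cd44*, the adhesion receptor used to recognise antigen-experienced T cells, had 302, 181 and 319.9 CPM in N+P C5 and ran from 144 to 403 CPM with a median of 288 in S+P C5, with a log2 fold change of 0.08 (95% interval -0.79 to 0.96). *Itgb1*, the integrin beta-1 chain, was chosen after its values were seen and had a log2 fold change of -0.27 (95% interval -1.14 to 0.60).

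The levels of the genes for the sorted proteins overlapped between the groups. *Pdcd1* had 415, 178 and 143 CPM in N+P C5 and ran from 90.3 to 405 CPM with a median of 326 in S+P C5 (log2 fold change 0.16, 95% interval -2.14 to 2.46). *Nt5e* had 119, 161 and 162 CPM in N+P C5 and ran from 21.6 to 170.2 CPM with a median of 121 in S+P C5 (log2 fold change -0.40, 95% interval -2.57 to 1.78). Of 13 inhibitory receptor genes, 0 had an unadjusted p under 0.05, 12 had a log2 fold change above 0 and the median was 0.48. *Tigit* had 142, 98.4 and 109 CPM in N+P C5 and ran from 168 to 907 CPM with a median of 378 in S+P C5, and all S+P C5 samples lay above the N+P C5 samples (log2 fold change 1.89, SE 1.04, unadjusted p = 0.0786, and unadjusted p = 0.00235 with only the 2 groups in the fit). *Tigit* encodes a receptor that competes with costimulatory CD226. *Lag3*, which encodes an inhibitory receptor for MHC class II, had 311, 309 and 217 CPM in N+P C5 and ran from 42.3 to 703 CPM with a median of 406 in S+P C5, where replicates 2 and 3 had the lowest values. *Ctla4* had 349, 197 and 213 CPM in N+P C5 and ran from 99.9 to 576 CPM with a median of 339 in S+P C5, with overlap.

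Transcription factors linked to exhaustion depended on the fit. Of 14 tested, 12 had a log2 fold change above 0 with a median of 0.84, and 0 had an unadjusted p under 0.05 when all 7 groups shared the fit. With these 2 groups alone in the fit 6 were higher at an unadjusted p under 0.05, where 3.06% of all genes were, and 0 passed the adjusted threshold. *Eomes* had 28.7, 64.1 and 46.9 CPM in N+P C5 and ran from 97.7 to 202 CPM with a median of 119.6 in S+P C5, with no overlap (log2 fold change 1.54, unadjusted p = 0.164 with 7 groups and 0.00107 with 2). *Eomes* encodes a T-box factor of memory and exhausted CD8 T cells. *Irf4*, a factor induced by antigen receptor signals, had 38.1, 25.4 and 34.0 CPM in N+P C5 and ran from 51.9 to 96.3 CPM with a median of 79.8 in S+P C5, also with no overlap (unadjusted p = 0.415 with 7 groups and 0.00227 with 2). *Tox2* had no overlap either, with 6.30, 14.3 and 16.2 CPM in N+P C5 and values from 22.6 to 60.2 CPM with a median of 44.0 in S+P C5 (unadjusted p = 0.393 and 0.00545). *Prdm1*, *Maf* and *Nr4a2* were the remaining members of the 6. *Tox* had 188, 240.5 and 329 CPM in N+P C5 and ran from 252 to 525.5 CPM with a median of 405 in S+P C5 (log2 fold change 0.64, 95% interval -0.41 to 1.70), and N+P C5 replicates 1 and 2 lay below all S+P C5 samples. For *Nfatc1*, the calcium-dependent factor NFAT2, the log2 fold change was 0.36 (95% interval -0.39 to 1.12). Of 11 effector and memory transcription factors tested, 1 was higher, *Stat4*, which transmits IL-12 signals. *Stat4* had 177, 142 and 154 CPM in N+P C5 and ran from 229.7 to 401 CPM with a median of 272 in S+P C5, without overlap (log2 fold change 0.87, SE 0.34, unadjusted p = 0.0146), and the number higher was 0 without N+P C5 replicate 2 or 3 and with the 4 replicates that have both libraries. *Irf4*, *Tox2*, *Prdm1*, *Maf* and *Nr4a2* are named here after their values were seen.

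Among 12 anergy and adenosine genes, 1 was lower, *Dgka*, a kinase that removes the second messenger diacylglycerol. *Dgka* had 714, 718 and 687 CPM in N+P C5 and ran from 342 to 528 CPM with a median of 388 in S+P C5, without overlap (log2 fold change -0.78, SE 0.37, unadjusted p = 0.0422). The number lower was 1 without S+P C5 replicate 2 or 6 and 0 in any other omission of 1 sample, and it was 0 with the 4 replicates that have both libraries. *Izumo1r*, which encodes the anergy marker FR4, had 160.4, 163 and 125 CPM in N+P C5 and ran from 34.1 to 194 CPM with a median of 118 in S+P C5, with a log2 fold change of -0.27 (95% interval -2.60 to 2.05). Of 22 cytokine receptor genes, 1 was higher and 2 lower. *Il10ra* had 89.8, 70.3 and 83.8 CPM in N+P C5 and ran from 169 to 304 CPM with a median of 269 in S+P C5, without overlap (log2 fold change 1.60, SE 0.76, unadjusted p = 0.0434). *Il10ra* encodes the ligand-binding chain of the IL-10 receptor. The lower genes were *Il6st* (log2 fold change -1.40, unadjusted p = 0.0404), the signal chain gp130 of the IL-6 family, and *Ifngr1* (log2 fold change -1.14, unadjusted p = 0.0332), the ligand-binding chain of the interferon-gamma receptor. The number lower was 0 or 1 without N+P C5 replicate 1 or 2 or without S+P C5 replicate 1, 3, 4, 5 or 6, and 1 gene was higher without S+P C5 replicate 3 or 6 but 0 in any other omission of 1 sample. The numbers were 0 higher and 2 lower with the 4 replicates that have both libraries. Of 15 costimulatory receptor genes, *Slamf7* was higher and *Cd226* lower. *Slamf7* had 114, 103 and 134 CPM in N+P C5 and ran from 152 to 488 CPM with a median of 419 in S+P C5, without overlap (log2 fold change 1.73, SE 0.78, unadjusted p = 0.0338). *Slamf7* encodes a self-ligand receptor of cytotoxic lymphocytes, and S+P C5 replicate 3 had the lowest of the 6 values. *Cd226* encodes the costimulatory partner of TIGIT and had 334, 174 and 272 CPM in N+P C5 against values from 87.7 to 172 CPM with a median of 121 in S+P C5 (log2 fold change -0.995, SE 0.45, unadjusted p = 0.0331). The number higher was 0 without N+P C5 replicate 1, 2 or 3, and the number lower was 0 without N+P C5 replicate 1 or 3 or S+P C5 replicate 3, 4 or 5. It was also 0 with the 4 replicates that have both libraries, where the number higher was 1. Of 14 survival and death genes, 2 were lower, *Bcl2* (log2 fold change -1.11, unadjusted p = 0.017), which protects resting lymphocytes, and *Bbc3* (log2 fold change -4.20, unadjusted p = 0.0149), which encodes the death-promoting protein PUMA. The number was 1 with the 4 replicates that have both libraries, and without N+P C5 replicate 1 or 3.

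Of 9 follicular helper-like genes tested, 1 was higher, *Sh2d1a*, which encodes SAP, the adaptor of SLAM receptors. *Sh2d1a* had 95.2, 156 and 163 CPM in N+P C5 and ran from 247 to 610.0 CPM with a median of 363 in S+P C5, without overlap (log2 fold change 1.58, SE 0.49, unadjusted p = 0.00306). Cell cycle genes had a log2 fold change above 0 in 21 of 22 cases with a median of 1.04, but 1, *Hmgb2* (log2 fold change 0.93, unadjusted p = 0.0316), had an unadjusted p under 0.05, and the number was 0 without N+P C5 replicate 2 or S+P C5 replicate 1 and 2 without N+P C5 replicate 1, N+P C5 replicate 3 or S+P C5 replicate 2. With only the 2 groups in the fit the number was 5, where 3.06% of all genes tested were higher. With the 4 replicates that have both libraries as well, a fit chosen after seeing the data, it was 13. In that fit 612 of all genes tested were higher, but the number tested is not given here. The 13 therefore has no background share beside it and is not read as a result. *Mki67* had 28.5, 14.6 and 53.9 CPM in N+P C5 and ran from 44.7 to 156 CPM with a median of 128 in S+P C5 (log2 fold change 1.79, unadjusted p = 0.163 with 7 groups and 0.00461 with 2). *Mki67*, which encodes the proliferation marker Ki-67, was named after its values were seen. Of 78 nuclear genes of oxidative phosphorylation, 67 had a log2 fold change above 0 with a median of 0.36 and 1 was higher at an unadjusted p under 0.05, a number that was 0 without N+P C5 replicate 1 or 3 or S+P C5 replicate 2 or 3 and reached 5 without S+P C5 replicate 6, and it was 0 with the 4 replicates that have both libraries. *Cox4i1* had a log2 fold change of 0.00 (95% interval -0.66 to 0.66) and *Atp5f1b* of -0.24 (95% interval -1.02 to 0.55). Ribosomal protein genes, whose processed copies elsewhere in the genome make single counts uncertain, gave a median of 0.00 over 89 genes with 2 lower (1 with the 4 replicates that have both libraries). *Rplp0* had a log2 fold change of -0.34 (95% interval -0.96 to 0.28) and *Rps27* of 0.47 (95% interval -0.56 to 1.499).

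Other housekeeping and regulatory lists had no member at an unadjusted p under 0.05. Glycolysis genes (17 tested) had a median of -0.21, with *Gapdh* at 0.22 (95% interval -0.999 to 1.43) and *Eno1* at -0.24 (95% interval -1.40 to 0.92). DNA and histone modifiers (20 tested) had a median of 0.17, with the histone methyltransferases *Kmt2d* at -0.76 (95% interval -1.88 to 0.36) and *Kmt2a* at 0.08 (95% interval -0.77 to 0.94). Subunits of chromatin remodeling complexes (16 tested) had a median of -0.12, with *Arid1a* at -0.04 (95% interval -1.45 to 1.37) and *Bptf* at 0.11 (95% interval -1.02 to 1.24). AP-1 and early response genes (12 tested) had a median of -0.52, with *Junb* at -0.51 (95% interval -1.73 to 0.71) and *Dusp1* at 0.06 (95% interval -1.43 to 1.54). Of 21 interferon-stimulated genes, 1 was higher, *Ifi27l2a* (log2 fold change 0.93, unadjusted p = 0.024), which overlaps *Ifi27* on the opposite strand, and whether counting used strand is not given in the sources used here. The count was 0 without N+P C5 replicate 2 or 3 or S+P C5 replicate 2, and with the 4 replicates that have both libraries.

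**Figure D4:**
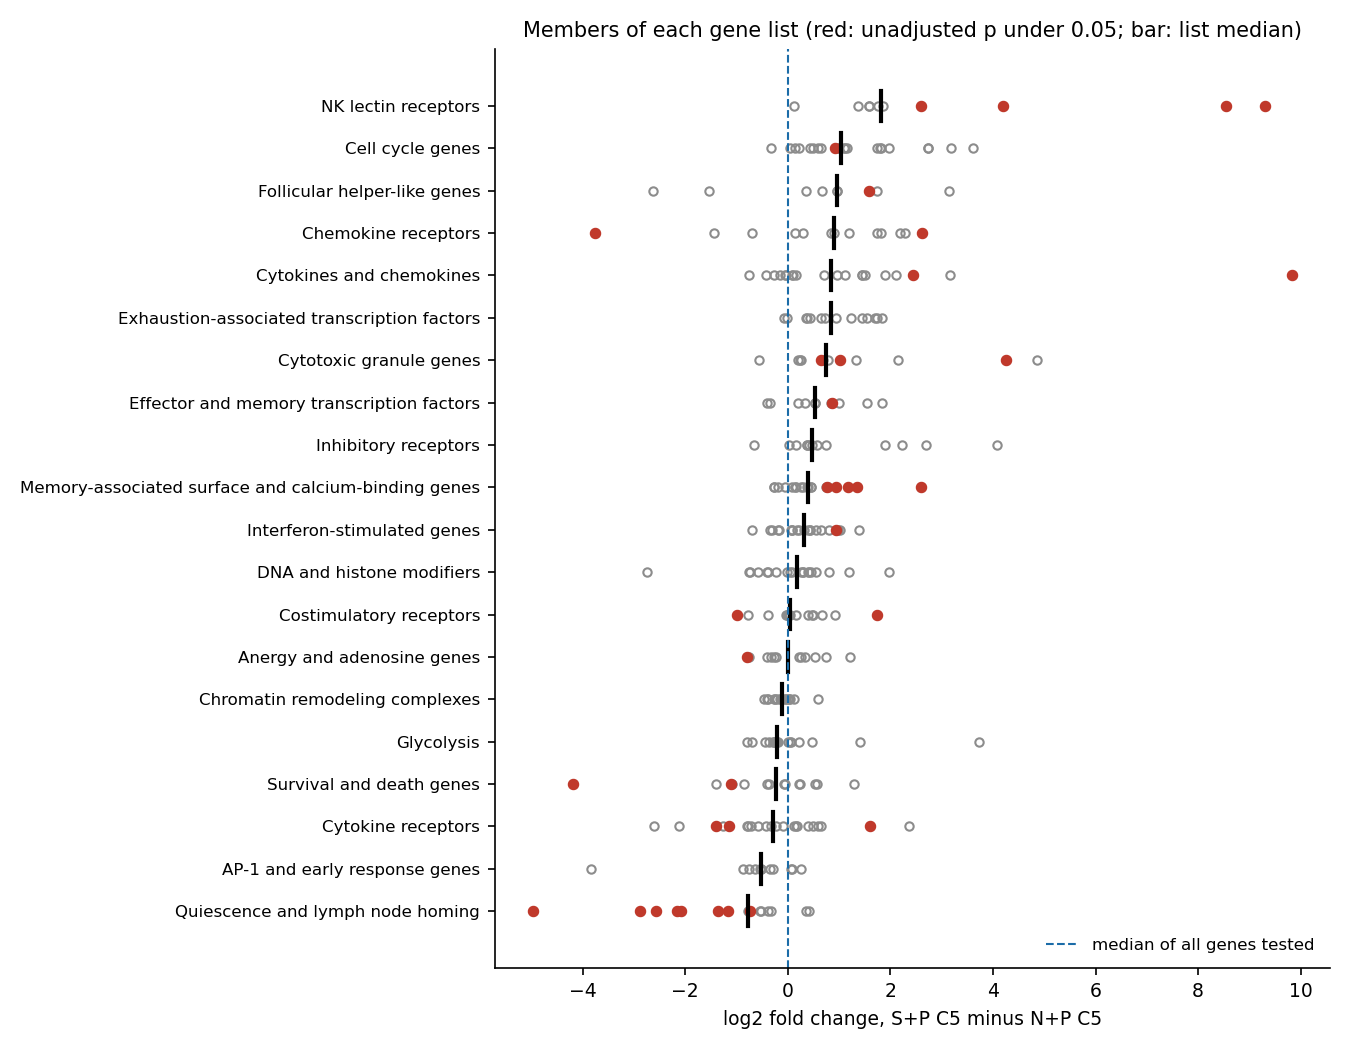
Log2 fold change of S+P C5 minus N+P C5 (horizontal axis) for every tested member of each of 20 gene lists (rows, ordered by median), with red points for an unadjusted p under 0.05, black bars at list medians and a dashed line at the median of all genes tested. The list of quiescence and lymph node homing genes has the lowest median, -0.78, and that of NK lectin receptors the highest, 1.81.

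The remaining genes with the smallest p values and no overlap between the groups were of mixed function. Among higher genes were *Ctla2a*, which encodes an inhibitor of cathepsin-like proteases, *Hcst*, which encodes DAP10, the signal partner of NKG2D, *Samd3* and *Prr13*. *Ctla2a* had 80.8, 61.7 and 101 CPM in N+P C5 and ran from 150.5 to 318 CPM with a median of 249 in S+P C5 (log2 fold change 1.55, SE 0.44, unadjusted p = 0.00134). *Hcst* had 208, 177 and 149.8 CPM in N+P C5 and ran from 211 to 672 CPM with a median of 279 in S+P C5 (log2 fold change 1.11, SE 0.42, unadjusted p = 0.0121). *Hcst* was highest in S+P C5 replicates 2 and 3, and its log2 fold change was 0.48 with the 4 replicates that have both libraries (unadjusted p = 0.212). *Samd3* (log2 fold change 1.63, unadjusted p = 0.022) and *Prr13* (log2 fold change 1.00, unadjusted p = 0.0213) had SEs of 0.68 and 0.41. Among lower genes, *Rgcc*, a regulator of the cell cycle, had 132, 139.8 and 104 CPM in N+P C5 and ran from 16.5 to 46.2 CPM with a median of 18.4 in S+P C5 (log2 fold change -2.29, SE 0.73, unadjusted p = 0.00356). *Plaur*, which encodes the urokinase receptor, had 7.16, 25.6 and 2.20 CPM in N+P C5 and 0 counts in all 6 S+P C5 samples, which is at least 121-fold lower when 3 counts per sample are taken as the floor. *Slc6a19*, a transporter of neutral amino acids, had 19.3, 32.9 and 12.4 CPM in N+P C5 and at most 0.0863 CPM in S+P C5. *Klf13* (log2 fold change -0.91, unadjusted p = 0.00275), *Vipr1* (log2 fold change -6.07, unadjusted p = 0.00363), the receptor of vasoactive intestinal peptide, and *Ifi208* (log2 fold change -2.35, unadjusted p = 0.00515) were the rest. Because *Vipr1* reached at most 0.598 CPM in S+P C5, the size of its fold change is uncertain. The floor covers counting error only, since PCR reads without molecular identifiers are not independent molecules.

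Genes that part memory from naive TFGS before pregnancy were then read in the C5 comparison, which shares no sample with that of unmated mice. Unmated C57BL/6 females with the skin graft are called Sensitized and those without it Naive. Between 4 Sensitized and 3 Naive samples, 30 of 19657 genes (0.153%) passed both thresholds, all higher in Sensitized. In S+P C5 against N+P C5, 27 of the 30 had a log2 fold change above 0 and 11 were higher at an unadjusted p under 0.05, where 2.15% of all genes were, and 0 were lower. Their median log2 fold change was 4.13 between unmated mice, 2.55 between the PD1-negative subsets S+P C4 and N+P C1 (where 12 of all genes tested, 0.061%, passed both thresholds), and 0.80 between the C5 subsets. When genes were called anew without N+P C5 replicate 1, 24 passed between unmated mice and their C5 median was 1.29, and with DESeq2 1078 passed and their C5 median was 0.49. The 30 were chosen on the unmated contrast, so their larger fold there is a description, not a test. In the PD1-negative comparison, S+P C4 replicates 2 and 3 had only 8002 and 7436 detected genes. The 11 included *Klrk1*, *Gzmk*, *Ccl5*, *Ctla2a*, *Slamf7*, *Nkg7*, *S100a6*, *Lgals1* and *Prr13*. Across 8243 genes with at least 10 CPM, log2 fold changes of the C5 comparison had Pearson's r 0.225 and Spearman's rho 0.177 with the unmated comparison, and 0.316 and 0.237 with the PD1-negative comparison, over genes that are not independent replicates.

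The difference of the 2 contrasts was tested in the same fit over all genes, and 5 of 19657 (0.0254%) passed both thresholds, each with a smaller fold in C5 than between unmated mice. *S100a6* ranged over 9.71 to 12.3 CPM in Naive and 435 to 865 CPM in Sensitized, and over 129 to 428 CPM in N+P C5 and 358 to 1047 CPM in S+P C5 (difference of log2 fold changes -4.64, adjusted p = 0.00295 by edgeR). *Klrk1* ranged over 14.8 to 17.7 CPM in Naive and 915 to 1312 CPM in Sensitized, so that N+P C5 lay above Naive and S+P C5 below Sensitized (difference -3.50, adjusted p = 0.0529 by edgeR). *Itgb1* ranged over 38.5 to 56.9 CPM in Naive, 297 to 472 CPM in Sensitized, 631 to 1350.2 CPM in N+P C5 and 566 to 1113 CPM in S+P C5 (difference -3.40, adjusted p = 0.0529 by edgeR). *Bhlhe40*, a transcription factor of activated and tissue-resident T cells, reached at most 0.206 CPM in Naive and 154 to 379 CPM in N+P C5, beside 66.0 to 409 CPM in S+P C5 (adjusted p = 0.0529 by edgeR). *Ttc39c* had 0 counts in Naive, 25.2 to 61.6 CPM in Sensitized, 3.19 to 49.8 CPM in N+P C5 and 20.6 to 62.3 CPM in S+P C5 (adjusted p = 0.0806 by edgeR). *Bhlhe40*, *Itgb1* and *Ttc39c* were named after their values were seen. The number of such genes was 1 without N+P C5 replicate 1 or without S+P C5 replicate 3, 4, 5 or 6, 3 without N+P C5 replicate 3 or S+P C5 replicate 1, and 1 with the 4 replicates that have both libraries. These quiescence genes did not pass this test, and their log2 fold changes between unmated mice and in C5 were -1.82 and -2.89 for *Satb1* and -2.22 and -2.57 for *Ccr7*. *Il7r* had log2 fold changes of 0.45 between unmated mice and -1.37 in C5 (difference -1.82, adjusted p = 0.649 by edgeR).

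**Figure D5:**
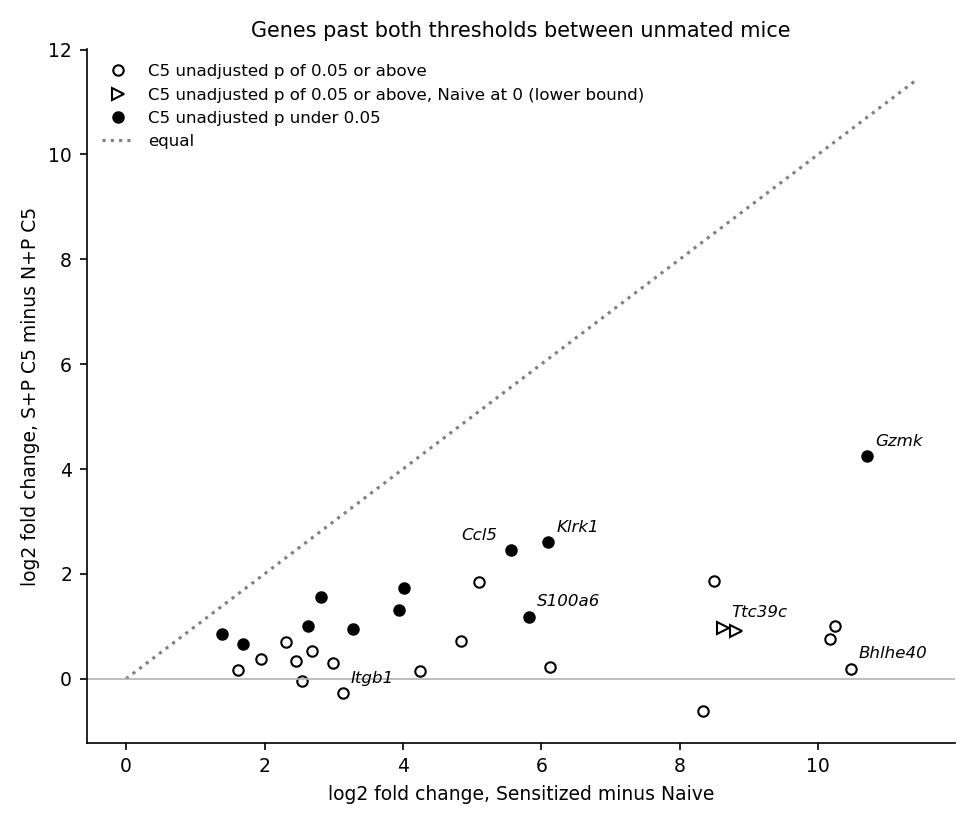
Log2 fold change of S+P C5 minus N+P C5 (vertical axis) against that of Sensitized minus Naive (horizontal axis) for the 30 genes past both thresholds between unmated mice, with filled symbols for a C5 unadjusted p under 0.05, triangles at the lower bound for genes with 0 counts in Naive and a dotted line of equal values. 27 points lie above 0, and all lie under the dotted line, which the choice of genes on the horizontal axis favours.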

How the data were processed

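The deposited file is a table of raw counts per gene, 56 libraries by 55359 genes. Per the labels, the authors trimmed reads with cutadapt 3.4, aligned them to GRCm39 with STAR 2.6.1b and counted them with featureCounts 2.0.1, leaving out reads that mapped to several places. The annotation release and the strand option are not given in the sources used here, and coordinates were looked up in GENCODE M39, which held 54749 of the genes.

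Technical libraries of a replicate were summed. 1 library identical in Naive and S+P C4 was left out, and a near-identical pair in S+P C7 was averaged. Counts of all 30 samples in 7 groups were fitted with edgeR 4.0.16 (filterByExpr with a minimum count of 10, TMM, robust quasi-likelihood) in R 4.3.3, with Benjamini-Hochberg adjustment over all genes tested. A gene was called where its adjusted p was below 0.1 and its log2 fold change beyond 0.9 in either direction. Standard errors were derived from the F statistic. The script was checked on simulated counts. DESeq2 1.42.0, other normalizations and filters, other sample sets, a replicate block and the omission of each C5 sample were tried as alternatives.

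Genes were named if they were the sorted proteins' genes, passed both thresholds in the fit of 7 or of 2 groups, were among the 10 non-overlapping protein-coding genes with the smallest p in each direction (absolute log2 fold change above 0.9, at least 10 CPM in the higher group), were list members at an unadjusted p under 0.05, were the highest expressed members of a list with none, or are named by the study. The gene lists and members were chosen with earlier results of these data known. Depth was 6636532 to 32625243 counts per library in the series. Genes withheld from the text are not reported here, although counts over the gene lists include them.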

Additional observations from a re-analysis of the deposited data

Results flagged for a closer look

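A sample far from the rest of its group by Dixon's 95% criterion was found in 11 of 71 values tested in S+P C5. The criterion gives about 1 in 20 for normally distributed values. Genes near 0 in most samples, such as *Klra9* and *Slc6a19*, are not so distributed, so this rate is no measure of chance here. N+P C5, with 3 samples, was not tested. In replicate 3, *Arid1a* was the highest of the group at 503 CPM, *Klra9* the highest at 8.51 CPM and *Slamf7* the lowest at 152 CPM. In replicate 2, *Ifi27l2a* at 1530 CPM, *Nkg7* at 4369 CPM and *Prr13* at 882 CPM were the highest. In replicate 1, *Cxcl13* at 17.2 CPM, *Igfbp4* at 9.08 CPM and *Slc6a19* at 0.0863 CPM were the highest, as were *Tcf7* in replicate 6 at 723 CPM and *Vipr1* in replicate 4 at 0.598 CPM. Of these 11 values, 6 belong to replicates 2 and 3, the samples with 1 library.

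The log2 fold change of S+P C5 against N+P C5 was smaller than that of Sensitized against Naive, by a test of the difference in edgeR over all genes, for 5 genes. The difference was -4.64 for *S100a6*, -3.50 for *Klrk1*, -3.40 for *Itgb1*, -10.28 for *Bhlhe40* and -12.53 for *Ttc39c*. The last of these had 0 counts in Naive, so that its fitted value depends on the prior count and is no bound. *Bhlhe40* had a mean of 0.13 CPM in Naive, close to 0, so the size of its difference is uncertain as well.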

How the results depend on the processing

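With all 7 groups in the fit 0 genes passed both thresholds, an unadjusted p under 0.05 was found for 1155, and 39 members of the gene lists were among them. With only the 2 groups in the fit 2 passed (1 higher, 1 lower), 634 had an unadjusted p under 0.05 (438 higher, 196 lower) and 71 list members did. With DESeq2 757 passed (535 higher, 222 lower), 755 were higher and 347 lower at an unadjusted p under 0.05, 1078 genes differed between Sensitized and Naive and 820 in the difference of contrasts. With library size alone 2 passed (1 higher, 1 lower). With no filter on low counts 2 passed (2 lower), 2248 had an unadjusted p under 0.05 (1650 lower), 25 list members did, 14 genes differed between Sensitized and Naive and 2 in the difference. With genes of at least 10 CPM, 2 passed (1 higher, 1 lower), 81 had an unadjusted p under 0.05 (45 higher, 36 lower) and 9 passed in the difference. With technical libraries as separate samples 57 passed (11 higher, 46 lower), 933 were higher at an unadjusted p under 0.05, 64 list members were counted, 178 genes differed between Sensitized and Naive and 165 in the difference. Without the 3 samples of other groups 16 passed (5 higher, 11 lower), 75 list members were counted, and 153 and 27 genes passed in the unmated comparison and the difference. With the 4 S+P C5 replicates that have both libraries 22 list members were counted and 1 gene passed in the difference. With these and only the 2 groups, an alternative chosen after seeing the data, 12 passed (7 higher, 5 lower), 412 were lower at an unadjusted p under 0.05 and 96 list members were counted. With all 56 columns kept 1 gene passed in the difference. Fewer samples or genes entered several of these fits, and otherwise the cause was not tested.

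When each C5 sample was left out in turn, 0 to 1 genes passed both thresholds (0 to 1 higher), 102 to 415 were higher at an unadjusted p under 0.05, 22 to 41 list members were counted and 1 to 5 genes passed in the difference. Replicate numbers were not used as pairs in the main fit, because the groups are different animals. Correlations of deviations from group means were 0.068, 0.015 and 0.026 for same-numbered samples. For differently numbered samples they ran from -0.054 to 0.049. These values cannot decide whether same-numbered samples share an experiment. With the replicate block 415 genes had an unadjusted p under 0.05 (184 higher, 231 lower) and 78 list members did, and the log2 fold changes of *Arid1a* (0.12), *Bhlhe40* (-0.21), *Cox4i1* (-0.050), *Gapdh* (-0.24), *Lag3* (-1.37) and *Pdcd1* (-0.54) turned sign.

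Of 1540 log2 fold changes of 74 genes under alternatives, 1412 kept direction and side of the thresholds, 77 kept direction and passed them, and 51 turned sign, all of genes that were not called. With both-library replicates only, and with these in the fit of 2 groups, the values were 0.16 and 0.14 for *Atp5f1b*, -0.14 and -0.16 for *Bptf*, -0.0088 and -0.028 for *Ctla4*, 0.23 and 0.21 for *Eno1*, -0.28 and -0.30 for *Kmt2a*, and -0.26 and -0.29 for *Rps27*. With technical libraries as separate samples they were -0.0085 for *Bptf* and -0.047 for *Kmt2a*. *Cox4i1* was at -0.0080 with 2 groups, -0.019 with DESeq2 and with RLE, -0.0057 with library size alone, -0.020 with no filter and -0.0094 without the 3 samples. When 1 C5 sample was left out, ranges were -0.39 to 0.053 for *Arid1a*, -0.50 to 0.24 for *Atp5f1b*, -0.052 to 0.70 for *Bhlhe40*, -0.016 to 0.20 for *Bptf*, -0.13 to 0.16 for *Cox4i1*, -0.20 to 0.57 for *Dusp1*, -0.54 to 0.053 for *Eno1*, -0.012 to 0.68 for *Gapdh*, -0.053 to 0.19 for *Kmt2a* and -0.12 to 0.77 for *Pdcd1*.

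Limits are the 3 N+P C5 samples, the 2 S+P C5 samples with 1 library, and 200 cells per library, so that low genes are at 0 in whole groups. A p-value above the threshold does not show that levels were alike.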
